A study of Mus musculus with 6 samples.

Results

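The 6 genes described here, S100a8, S100a9, S100a4, S100a6, S100a10 and S100a11, encode small calcium-binding proteins of the S100 family. They were chosen by their symbols, with earlier results of these data known. They are 6 of the 20394 genes in a table of counts from single leukocytes of the inflamed mouse knee. The table holds 11 further symbols that begin with S100. Male C57BL/6 mice bought at 8 weeks of age were immunized under the skin with 10 μg of methylated bovine serum albumin (mBSA) in complete Freund's adjuvant, and 100 μg of mBSA was injected into the knee joint on day 21. This antigen-induced arthritis (AIA) was shared by all animals, so the levels are those of challenged joints only. From day 21 the mice were given intraperitoneal PBS (vehicle, 2 samples) or 300 μg of the peptide PEPITEM (4 samples), and synovial cells that carried the leukocyte protein CD45 were sorted 3 days after the challenge. The 3′ ends of the RNA were counted cell by cell by unique molecular identifiers (UMIs, tags that mark single RNA molecules).

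The table pools the 6 samples. Each barcode ends in a number from 1 to 6, and no source used here links these numbers to a sample, so vehicle and PEPITEM were not compared and no test was run. The numbers stand for 6 libraries of unknown treatment, which are not replicates of a group. Each value below sums all cells of a class, and ranges cover the libraries that held at least 20 of its cells. Ranges that include smaller libraries are named where they occur. The libraries held 2919 to 9345 cells, 32953 in all, with a median of 11376 UMIs per cell. 138 barcode sequences occurred in more than 1 library (276 cells). Ptprc, the gene of CD45, had a UMI in 95.8% of the cells, and was lower in the 131 fibroblast-like cells (70.6 UMIs per 1000000, against 764 over all cells). Library 3 had the lowest share of neutrophil-like cells (12.4%, against 17.0% to 46.2% in the others). It set an end of several of the ranges below and is named for only some of them.

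S100A8 and S100A9 pair into calprotectin, an abundant protein of the neutrophil cytosol that binds calcium and metal ions. When cells are damaged or activated it leaves the cell and acts as an alarmin, a signal of injury that is read by receptors such as TLR4 and RAGE, and it is widely used as a marker of inflamed joints. The other 4 proteins work mainly inside cells: S100A4 binds non-muscle myosin, S100A6 (calcyclin) binds cytoskeletal and annexin partners, S100A10 forms a complex with annexin A2 at the membrane, and S100A11 binds annexin A1.

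All 6 genes lie on mouse chromosome 3 (GRCm38) and are protein coding. S100a4 (chr3:90603771-90606045), S100a6 (chr3:90612882-90624181) and S100a8 (chr3:90668978-90670035) are on the plus strand, and S100a9 (chr3:90692632-90695721) is on the minus strand. S100a11 (chr3:93520488-93526287) and S100a10 (chr3:93555080-93564643) follow on the plus strand. RefSeq promoter sequences (250 bases before to 50 after the start, GRCm38.p6) were matched for 5 members. The stretches upstream of S100a8 and S100a9 are shown because these genes had nearly the same pattern across the cell classes, and those of S100a4 and S100a6 because they were the next most alike. Each is printed 5′ to 3′ on the strand of its gene and stops before the first annotated start, at chr3:90668821-90668977 (plus) for S100a8, chr3:90695722-90695971 (minus) for S100a9, chr3:90603520-90603769 (plus) for S100a4 and chr3:90612644-90612881 (plus) for S100a6. Capitals mark matches to the motifs searched on both strands.
S100a8: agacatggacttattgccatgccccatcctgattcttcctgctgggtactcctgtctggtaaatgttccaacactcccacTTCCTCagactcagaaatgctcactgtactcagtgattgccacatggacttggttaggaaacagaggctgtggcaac
S100a9: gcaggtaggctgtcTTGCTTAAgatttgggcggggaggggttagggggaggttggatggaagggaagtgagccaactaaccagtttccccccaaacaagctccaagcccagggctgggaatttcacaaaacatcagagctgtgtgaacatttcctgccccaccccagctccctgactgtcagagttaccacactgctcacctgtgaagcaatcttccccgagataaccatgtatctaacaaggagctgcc
S100a4: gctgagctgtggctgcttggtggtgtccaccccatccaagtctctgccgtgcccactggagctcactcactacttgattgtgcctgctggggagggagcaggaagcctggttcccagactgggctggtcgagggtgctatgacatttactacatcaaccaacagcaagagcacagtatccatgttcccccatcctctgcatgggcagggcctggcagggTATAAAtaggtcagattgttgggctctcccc
S100a6: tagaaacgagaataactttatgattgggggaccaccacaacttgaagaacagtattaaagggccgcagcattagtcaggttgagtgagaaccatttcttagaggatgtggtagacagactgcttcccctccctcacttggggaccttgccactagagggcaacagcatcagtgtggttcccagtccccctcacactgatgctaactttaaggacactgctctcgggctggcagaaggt
The motifs searched were TATAAA (a core promoter element, in 13.6% of 32851 RefSeq promoters of the same length), TTGCNNAA (C/EBP, 10.8%) and GAGGAA (ETS, 28.3%). For AP-1 the letters were TGAGTCA. This motif, searched with its complement, was in 5.20% of them. In S100a8, GAGGAA occurred on the minus strand at position -170 from the RefSeq start, printed as TTCCTC, and again at -36, directly before TATAAA at -30. The matches at -36 and -30 lie downstream of the first annotated start and are not printed. S100a9 had TTGCNNAA at -236, and its TATAAA was at position 1. In S100a4, TATAAA stood at -31, and GAGGAA occurred on the minus strand at position 20, past the printed stretch. No motif was found in the window of S100a6, and that of S100a11 held the ETS motif at -153 and the AP-1 motif at -136 and -38. These matches describe letters and not bound sites.

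Cells were sorted into classes by lists of marker genes that hold none of the 6 members. A cell took the class whose list it expressed most fully, with at least 3 markers detected, and names of classes describe these markers and not sorted cells. By this gate 30663 cells (93.1%) fell into 19 classes, of which 17 held at least 50 cells, while 1724 cells tied between classes. The neutrophil-like class was clear-cut, with 2.45% of its 11413 cells at the minimum of markers and 4.69% leading by less than 0.15 over the next class. The borders were less sharp for macrophage-like cells (3874 cells, of which 17.0% led by less than 0.15 over the next class), classical monocyte-like cells (4835 cells, 13.9%) and type 2 dendritic cell-like cells (444 cells, 31.5%). Levels are UMIs of a gene per 1000000 UMIs of the class (CPM), which count 1 tag per molecule and are not scaled by length.

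S100a8 and S100a9 were by far the most abundant members, and neutrophil-like cells were their main source. S100a8 reached 127954 CPM in neutrophil-like cells, with 109460, 117372, 92139, 134685, 133424 and 132686 CPM in libraries 1 to 6. S100a9 reached 140822 CPM, with 124795, 132105, 102221, 142162, 149198 and 142538 CPM. Library 3 was the lowest for both genes, and the order of the libraries was similar but not the same. S100a9 ranked 1 and S100a8 ranked 2 among 18939 genes detected in these cells, and together they made up 26.9% of all UMIs of the class (19.4% to 28.3% over the libraries). In single neutrophil-like cells this share had a median of 26.9% and reached 49.2%.

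**Figure D1:**
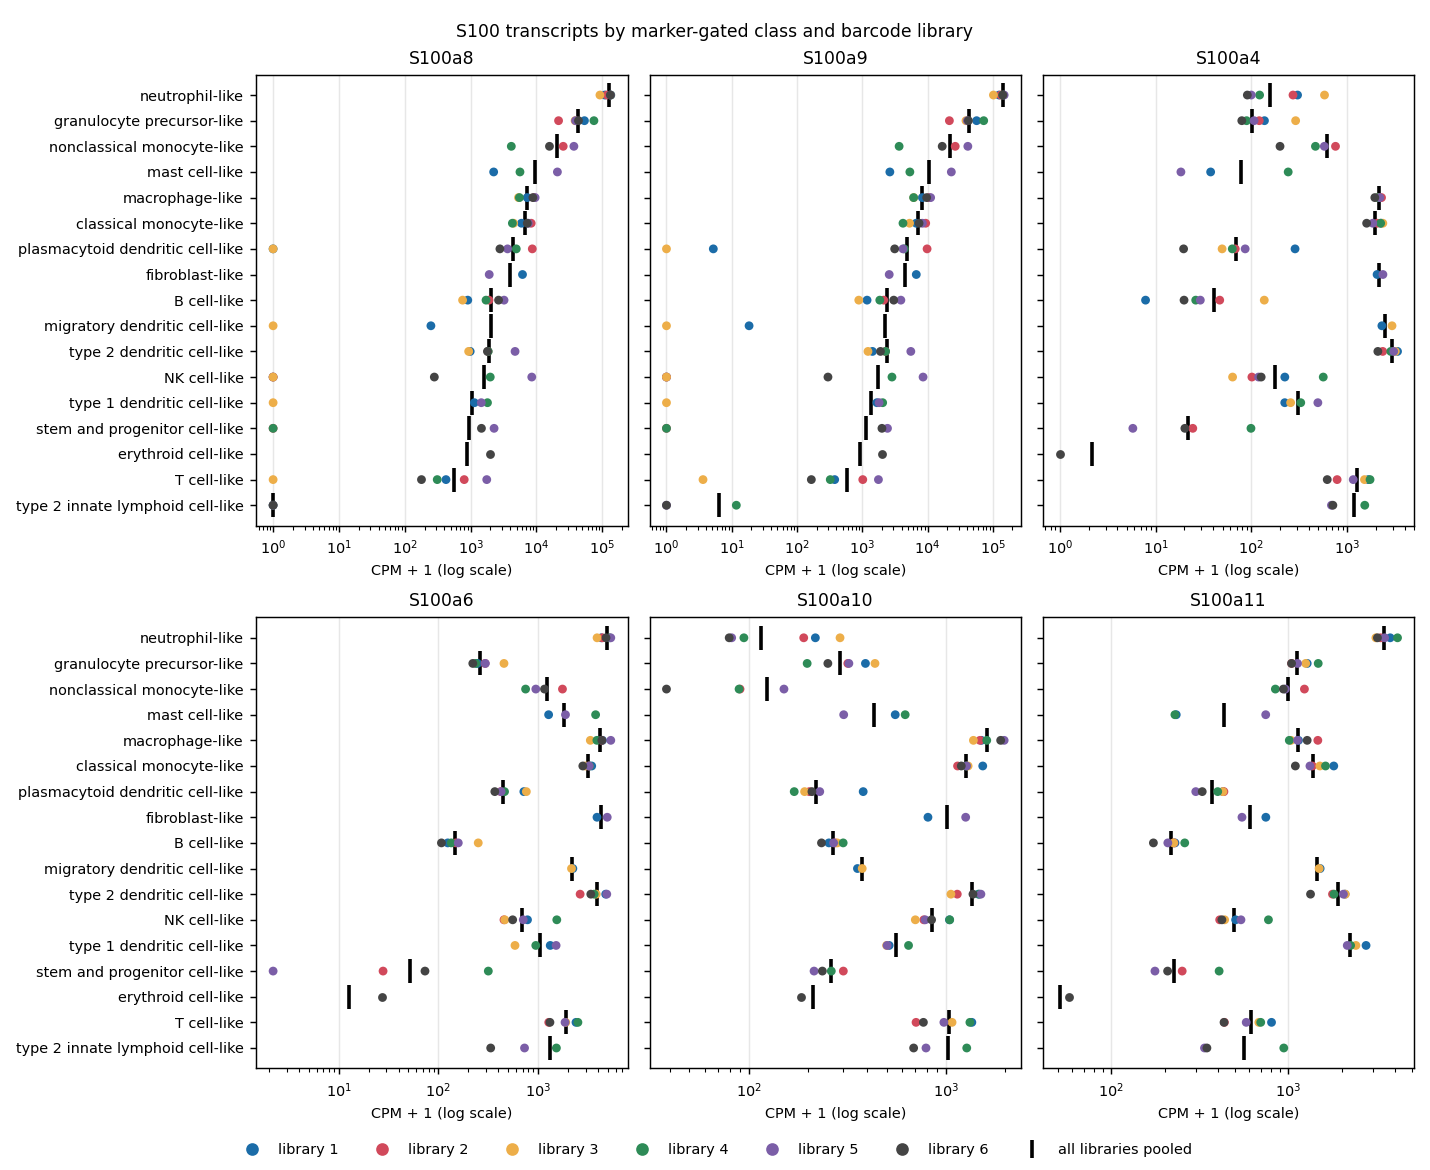
Level of each of the 6 members (UMIs per 1000000 plus 1, log axis) in each cell class, with 1 point per library of at least 20 cells and a bar for the pooled value. S100a8 and S100a9 are highest in neutrophil-like cells, where S100a10 is at its lowest level of all classes.

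The next class for both genes was granulocyte precursor-like cells, marked by Mpo and Elane, enzymes of the earliest granules. S100a8 stood at 42706 CPM (21674 to 74669) and S100a9 at 42682 CPM (21610 to 72501) there, so the library ranges did not overlap with neutrophil-like cells. From the precursor-like down to the B cell-like cells, neighbours in the order overlapped for both genes. S100a8 was at 20549 CPM in nonclassical monocyte-like cells (4151 to 37049 in 4 libraries), 9600 CPM in mast cell-like cells (2238 to 20815 in 3), 7191 CPM in macrophage-like cells (5340 to 9549) and 6674 CPM in classical monocyte-like cells (4309 to 8322). B cell-like cells had 2046 CPM (754 to 3220) and T cell-like cells 552 CPM (0 to 1758). In the T cell-like class, 1 cycling cell of library 5 held 3185 of the 6619 S100a8 UMIs. The T cell-like cells that were not cycling had 351 CPM (0 to 907), and 45.1 CPM in library 5. No S100a8 UMI was found in 101 type 2 innate lymphoid cell-like, 112 regulatory T cell-like or 128 gamma-delta T cell-like cells, where a count of 0 allows a share of cells with a UMI of up to 2.97%, 2.68% and 2.34% (3 cells of the total). This limit holds for the corrected counts only, since 96, 100 and 116 of these cells held an S100a8 entry written as 0, a kind of entry described below. Neutrophil-like cells made up 34.6% of all cells and held 76.2% of all S100a8 and 76.8% of all S100a9 UMIs. A further 10.9% of the S100a8 UMIs were in the tied cells.

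Below the neutrophil and precursor classes, the mean levels were carried by a minority of cells. S100a8 was detected in 99.9% of neutrophil-like cells (11400 of 11413; 95% Wilson interval 99.8% to 99.9%, which, as for all intervals here, covers counting error only), and in 59.9% of precursor-like cells (56.9% to 62.7%). It was detected in 28.8% of macrophage-like cells (27.4% to 30.2%) and 19.7% of classical monocyte-like cells (18.6% to 20.8%). For comparison, 3.43% of B cell-like (2.99% to 3.93%) and 0.907% of T cell-like cells (0.493% to 1.66%) had a UMI. Depth differed between the classes, with medians of 7914 UMIs per neutrophil-like, 17147 per monocyte-like, 14722 per macrophage-like, 5792 per B cell-like and 9197 per T cell-like cell. After thinning every cell to 2000 UMIs, the shares were 99.8%, 27.0%, 18.3%, 2.64% and 0.82% in neutrophil-, macrophage-, monocyte-, B cell- and T cell-like cells.

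The deposited table tells apart genes with no entry and genes with an entry written as 0. Entries of the second kind were read as counts that the removal of ambient RNA had lowered to 0, and they are common for this gene. An S100a8 entry of 0 was present in 89.3% of B cell-like, 90.4% of T cell-like, 82.0% of type 2 dendritic cell-like, 77.5% of classical monocyte-like and 66.0% of macrophage-like cells, against 39.7% of precursor-like and 0.0876% of neutrophil-like cells. In B cell-like cells of library 3 the emptied share was 55.2% and the positive share 15.5%, while the other 5 libraries had 78.7% to 96.5% emptied and 1.59% to 2.74% positive. Without library 3, 2.25% of B cell-like cells had an S100a8 UMI in place of 3.43%. If emptied entries were counted as detected, the share would be 97.2% in monocyte-like and 92.7% in B cell-like cells.

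**Figure D2:**
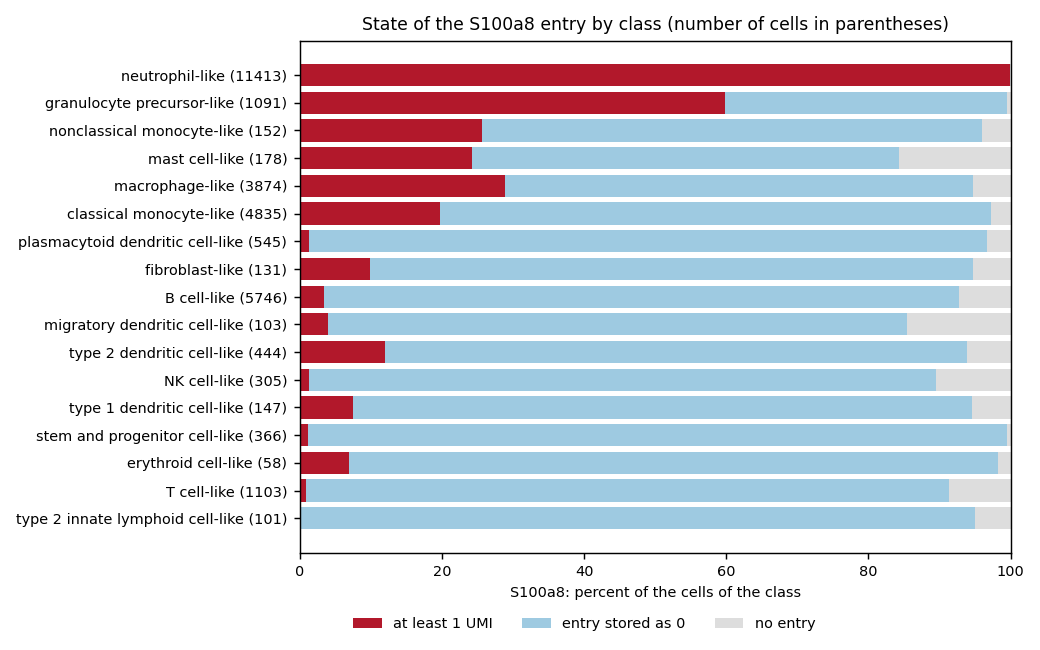
Percent of the cells of each class with an S100a8 UMI, with an S100a8 entry written as 0 (emptied) and with no entry. Emptied entries make up most cells of every lymphocyte and monocyte class and almost none of the neutrophil-like cells.

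In the other classes, markers of neutrophils were higher in the cells with S100a8 UMIs. Among the positive cells the median S100a8 level was 13775 CPM in the 952 monocyte-like and 13300 CPM in the 1116 macrophage-like cells, compared with 125182 CPM in neutrophil-like cells. It was 21256 CPM in the 10 positive T cell-like cells and 3261 CPM in the 43 positive mast cell-like cells. The 197 positive B cell-like cells spread widely, with a median of 8124 CPM and 207 and 88915 CPM at the 10th and the 90th percentile. The summed level of the 8 neutrophil markers was 9081 CPM (5274 to 12816) in S100a8-positive monocyte-like cells and 186 CPM (127 to 208) in those with an emptied entry. In macrophage-like cells the sums were 5822 CPM (4272 to 7354) and 75.3 CPM (53.7 to 99.7), and in B cell-like cells 14910 CPM (2212 to 22286) and 41.7 CPM (19.5 to 66.3). The range of the positive B cell-like cells includes libraries with fewer than 20 such cells. Part of the positive B cell-like cells carried this sum, since 32.5% of them had none of the 8 markers, against 1.79% of the positive monocyte-like and 3.58% of the positive macrophage-like cells. In neutrophil-like cells positive for S100a8 the same sum was 47231 CPM. None of the 8 markers, which include Ly6g, Retnlg, Csf3r and Mmp8, was at 0 in these groups of cells. Positive monocyte-like cells were also deeper, with a median of 21854 UMIs against 16436 in emptied ones. The marker counts had passed the same removal of ambient RNA as the S100a8 counts that defined these groups. The part of this correction in the differences, and that of neutrophil RNA in the S100a8 level of these classes, was not tested.

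**Figure D3:**
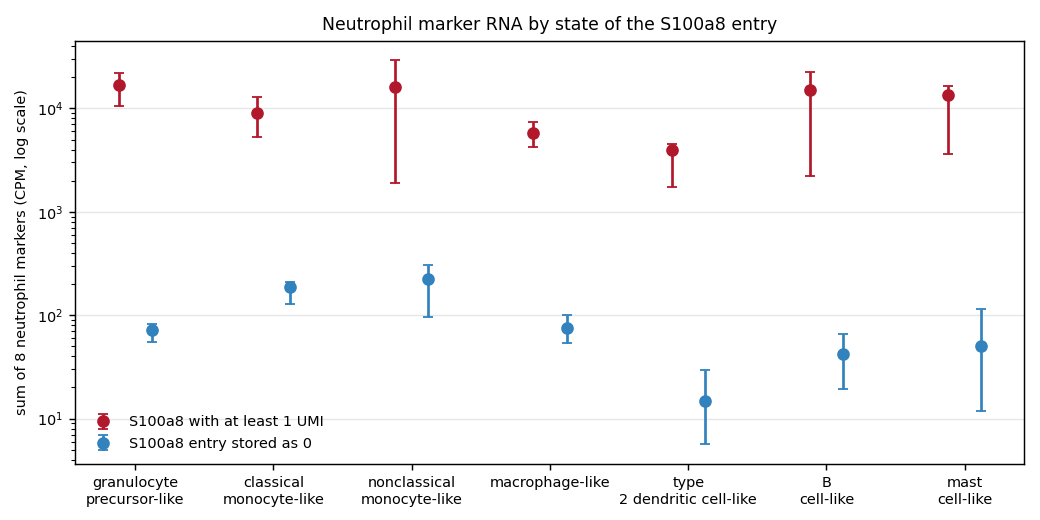
Summed level of the 8 neutrophil markers (UMIs per 1000000, log axis) in cells with an S100a8 UMI and in cells with an emptied S100a8 entry, per class, with points for the pooled value and bars from the lowest to the highest library. In every class plotted, the pooled sum is higher in the S100a8-positive cells. Markers and S100a8 are both counts after the removal of ambient RNA.

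Levels outside the neutrophil-like class depended on how cells were assigned. When classes were taken from Leiden clusters (groups of cells with similar overall expression) instead of single-cell gates, S100a8 was 129455 CPM in neutrophil-like and 39233 CPM in precursor-like cells, close to the gated values. In macrophage-like cells it was 28966 CPM in place of 7191 CPM and in B cell-like cells 7935 CPM in place of 2046 CPM. In classical monocyte-like cells it was 1814 CPM in place of 6674 CPM, and in nonclassical monocyte-like cells 615 CPM in place of 20549 CPM. S100a9 moved in the same way, for example to 32100 CPM in macrophage-like and 1839 CPM in classical monocyte-like cells. Several of these clusters were mixed: the macrophage-like cluster of 1907 cells had 0.816 of its own markers detected per cell and 0.769 of those of the next class, the monocyte-like cluster of 2469 cells 0.725 and 0.714, and a B cell-like cluster of 400 cells 0.646 and 0.584. A neutrophil-like cluster of 579 cells was mixed too, with 0.774 and 0.760. Low levels of the other members moved as well: S100a10 in neutrophil-like cells was 66.3 CPM in place of 115 CPM, S100a6 in precursor-like cells 421 CPM in place of 263 CPM, and S100a6, S100a11 and S100a4 in B cell-like cells were 449, 393 and 65.2 CPM in place of 147, 215 and 39.4 CPM.

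The UMIs of S100a8 and S100a9 stood in a narrow ratio. In neutrophil-like cells there were 0.909 S100a8 UMIs for each S100a9 UMI (0.877 to 0.947 over the libraries), and 99.9% of the cells with either gene had both. The ratio was 0.878 (0.856 to 0.911) in macrophage-like cells, below the neutrophil-like cells of the same library in 6 of 6 libraries. In classical monocyte-like cells it was 0.923 (0.850 to 1.03), above them in 5 of 6. Precursor-like cells had 1.00 (0.948 to 1.03), above the neutrophil-like cells of the same library in 6 of 6 libraries. In B cell-like cells the ratio was 0.863 (0.764 to 0.924), although 26.6% of the cells with either gene had both. More B cell-like cells had an S100a9 UMI (8.60%) than an S100a8 UMI (3.43%), and the median of the S100a9-positive cells was 591 CPM. The entry was emptied in 86.6% of B cell-like cells for S100a9 and in 89.3% for S100a8.

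The ratio was highest in the precursor-like cells with the least mRNA of secondary granule proteins. The summed share of Ltf (lactoferrin), Camp (cathelicidin) and Ngp in the UMIs of a cell was used as a scale of granule content. In the 618 precursor-like cells below 0.1%, S100a8 was at 3956 CPM (1810 to 4693 in 5 libraries) and S100a9 at 2348 CPM (1072 to 2958), a ratio of 1.68. In the 5 libraries with enough cells this ratio was 1.69, 1.71, 3.10, 1.62 and 1.59 (libraries 1, 2, 4, 5 and 6), above every value of neutrophil-like cells. The highest of these values came from the 29 cells of library 4. In the precursor-like cells below 0.1%, 29.1% were positive for S100a8 (25.7% to 32.8%) and 19.6% for S100a9 (16.6% to 22.9%). The S100a8 entry was emptied in 70.1% of them and the S100a9 entry in 80.3%. The ratio is therefore one of corrected counts, and the part of the correction in it was not tested. In the 348 precursor-like cells at 3% or more, S100a8 was at 116666 CPM and S100a9 at 121074 CPM, and the ratio was 0.964. Cycling classical monocyte-like cells (1212 cells with at least 3 cell cycle markers) also had a ratio above the neutrophil-like cells in 6 of 6 libraries, 0.988 pooled (0.932 to 1.56, the highest in library 4), against 0.886 (0.824 to 0.991) in those that were not cycling.

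**Figure D4:**
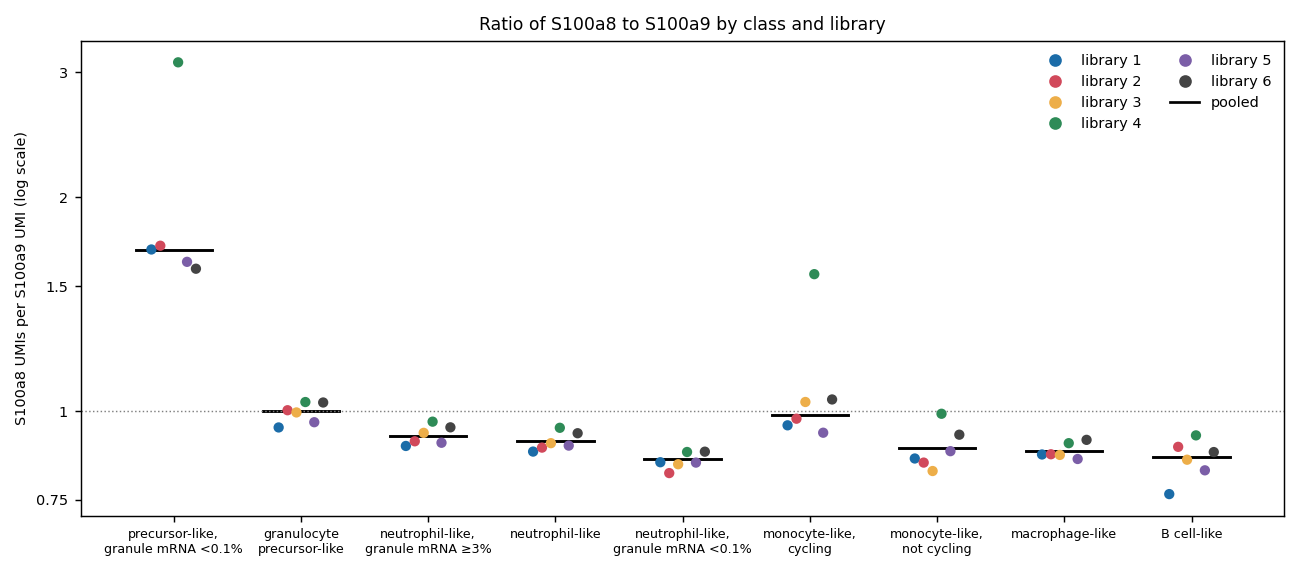
Number of S100a8 UMIs per S100a9 UMI in neutrophil-like, precursor-like, monocyte-like, macrophage-like and B cell-like cells and their subsets (log axis), with 1 point per library and a line for the pooled value. Precursor-like cells with little granule mRNA sit at 1.59 to 3.10, above the 0.877 to 0.947 of neutrophil-like cells.

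Within the neutrophil-like cells, the members split along the granule scale. From the 4239 cells with less than 0.1% granule mRNA, through ranges of 0.1% to 1%, 1% to 3% and 3% to 10%, to the 871 cells with 10% or more, S100a8 was at 72431, 106877, 113444, 144676 and 160623 CPM. Pooled S100a9 followed the same order from 84654 to 170903 CPM. S100a6 went the other way after a peak in the second range, with 7404, 9567, 7824, 3669 and 1381 CPM. S100a11 was lower in each further range of the pooled cells, with 5202, 5090, 4065, 2829 and 2044 CPM. S100a4 and S100a10 were low throughout and spread widely between libraries, from 195 to 611 and from 160 to 324 CPM in the lowest range, and in the highest range they were nearly absent, at no more than 7.36 and 2.45 CPM in any of the 5 libraries with at least 20 such cells. Depth moved with the scale, since the median was 4529 UMIs per cell in the lowest and 17853 in the highest range, and its part was not tested. Ltf and Ngp also belong to the list that gated these cells.

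**Figure D5:**
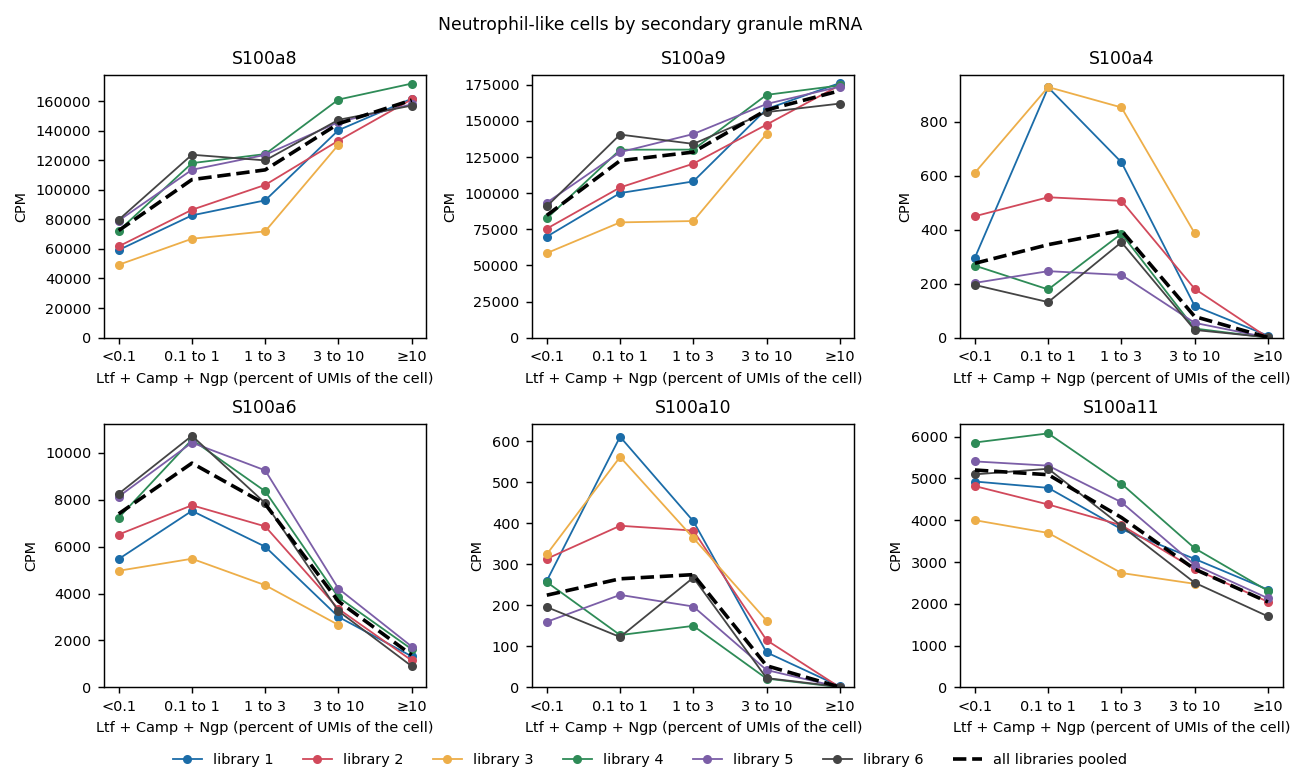
Level of each member (UMIs per 1000000, linear axes from 0) in neutrophil-like cells by the share of Ltf, Camp and Ngp in the UMIs of the cell, with 1 line per library and a dashed line for the pooled value. Pooled S100a8 and S100a9 climb along the scale, and S100a6 and S100a11 are lowest in the range of 10% or more.

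Between 4651 neutrophil-like cells with 3% or more granule mRNA and the 4239 cells below 0.1%, 2 members were higher with library ranges that did not overlap, S100a8 (log2 ratio 1.03) and S100a9 (0.92). Of the 6506 genes compared, 22.1% were higher in this sense. The ranges were lower without overlap for 3 members, S100a6 (log2 ratio -1.21), S100a10 (-2.42) and S100a11 (-0.96), and for 30.5% of all genes. S100a4 differed by a log2 ratio of -2.14, but its ranges overlapped (22.8 to 315 against 195 to 611 CPM). Within libraries, S100a4 was higher in the granule-rich cells in 0 of 6, with ratios of 0.0872 to 0.516. Since S100a8 and S100a9 take a larger share of all UMIs in the granule-rich cells, the other members were also scaled without these UMIs, which left S100a6 at 4631 against 8784 CPM and S100a11 at 3859 against 6172 CPM. On this scale S100a11 was not lower in the second range (6605 CPM) than in the first, and was 5362, 4055 and 3057 CPM in the further ranges. Cycling neutrophil-like cells (1173 cells) had 142091 CPM of S100a8, 1581 CPM of S100a6 and 1880 CPM of S100a11, compared with 122886, 6127 and 4021 CPM in those not cycling. Their S100a6 and S100a11 were near the levels of the range of 10% or more. Their S100a8 was below the 144676 CPM of the range of 3% to 10%.

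S100a4, a binding partner of non-muscle myosin, was high in 2 of the dendritic cell-like classes and in macrophage-, monocyte- and T cell-like cells. Its highest level was 2932 CPM in type 2 dendritic cell-like cells, with 3357, 2354, 3186, 2855, 3060 and 2092 CPM in libraries 1 to 6. Migratory dendritic cell-like cells had 2468 CPM, fibroblast-like cells 2131 CPM, macrophage-like cells 2125 CPM (1945 to 2285) and classical monocyte-like cells 1967 CPM (1598 to 2358). These neighbours overlapped, so their order was not resolved. The other dendritic cell-like classes had less, with 305 CPM in type 1 and 68.8 CPM in plasmacytoid dendritic cell-like cells. In neutrophil-like cells S100a4 was at 155 CPM, with 303, 271, 580, 121, 98.8 and 89.8 CPM in the libraries and the highest value in library 3. A UMI was found in 98.7% of classical monocyte-like, 93.8% of macrophage-like and 59.7% of T cell-like cells (93.2%, 83.6% and 47.2% after thinning), against 7.43% of neutrophil-like and 1.91% of B cell-like cells (5.10% and 1.11% after thinning).

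The 848 neutrophil-like cells with an S100a4 UMI carried markers of macrophages. The 8 macrophage markers, among them C1qa and Apoe, summed to 2492 CPM (1948 to 2956) in these cells and to 76.5 CPM (55.7 to 174) in the 10565 neutrophil-like cells without one. Their median depth was 21373 UMIs against 7523. For S100a10 the same held, with 2242 CPM of macrophage markers (1876 to 2531) in 1017 positive cells and 82.6 CPM (62.2 to 194) in the rest. None of the markers was at 0, and the part of macrophage RNA in the S100a4 and S100a10 levels of neutrophil-like cells was not tested.

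S100a6 was shared between neutrophils and the other phagocytes. It was highest in neutrophil-like cells at 4927 CPM (3909 to 5367), followed by fibroblast-like cells at 4233 CPM, macrophage-like cells at 4217 CPM (3345 to 5366), type 2 dendritic cell-like cells at 3945 CPM (2642 to 4891) and classical monocyte-like cells at 3137 CPM (2812 to 3453). Neighbours in this order overlapped, and the first gap was below the monocytes, where migratory dendritic cell-like cells had 2167 CPM. S100a6 was low in precursor-like cells (263 CPM, 220 to 454) and in B cell-like cells (147 CPM, 106 to 250). The libraries of precursor-like and neutrophil-like cells were far apart, and S100a6 UMIs were found in 95.2% of neutrophil-like and 34.4% of precursor-like cells (91.3% and 20.9% after thinning). An emptied S100a6 entry was present in a further 1.72% of neutrophil-like and 36.3% of precursor-like cells.

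S100a10, the partner of annexin A2, ranged from 115 to 1619 CPM over the classes. It was highest in macrophage-like cells at 1619 CPM (1378 to 1973), followed by type 2 dendritic cell-like cells at 1348 CPM (1059 to 1504), classical monocyte-like cells at 1265 CPM (1145 to 1536) and T cell-like cells at 1040 CPM (705 to 1353). With Leiden clusters the first place passed to classical monocyte-like cells (1422 CPM, against 1253 CPM in macrophage-like cells). Neutrophil-like cells had the lowest level of the 17 classes, 115 CPM (78.7 to 290), and without library 3 or without library 5 the lowest class was nonclassical monocyte-like cells. In B cell-like cells S100a10 was at 266 CPM (233 to 300.5) and had a UMI in 66.9% of the cells (35.7% after thinning). This was the highest pooled level of the 4 intracellular members there, but its range overlapped that of S100a11 (215 CPM, 172 to 259). In Leiden B cell-like cells S100a10 (267 CPM) was below S100a6 (449 CPM) and S100a11 (393 CPM). In mature B cell-like cells it was at 235 CPM, below S100a11 (289 CPM). In precursor-like cells S100a10 was at 473 CPM below 0.1% granule mRNA and at 20.5 CPM at 3% or more.

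S100a11, the partner of annexin A1, was highest in neutrophil-like cells at 3456 CPM, with 3757, 3317, 3120, 4133, 3496 and 3183 CPM in libraries 1 to 6. Neutrophil-like cells did not overlap with type 1 dendritic cell-like cells (2218 CPM, 2150 to 2745 in 4 libraries). The type 1 range did not overlap with that of type 2 dendritic cell-like cells either (1914 CPM, 1333 to 2096). Without library 1 the pooled type 1 level was 2070 CPM, still the next below neutrophil-like cells. Only 4 libraries held enough type 1 cells, so the order of these dendritic cell-like classes over all 6 libraries was not resolved. Classical monocyte-like cells had 1382 CPM (1094 to 1803), macrophage-like cells 1137 CPM (1011 to 1466) and precursor-like cells 1125 CPM (1041 to 1473), which overlapped. Unlike S100a4 and S100a10, S100a11 was higher in precursor-like cells rich in granule mRNA (1602 CPM at 3% or more) than in those below 0.1% (798 CPM). The clearest contrast with its neighbour gene S100a10 was in neutrophil-like cells, where S100a11 had a UMI in 99.4% of the cells and S100a10 in 8.91%.

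Set against classical monocyte-like cells, neutrophil-like cells were higher in 4 members with no overlap of the libraries, and 11.3% of 7964 genes were higher in this sense. These were S100a8 (19.2-fold, log2 ratio 4.26; 14.1 to 31.3-fold within libraries), S100a9 (19.5-fold, 4.28), S100a11 (2.50-fold, 1.32) and S100a6 (1.57-fold, 0.65). Lower without overlap were 2 members, S100a4 (log2 ratio -3.67) and S100a10 (-3.46), where 59.0% of all genes were lower. Neutrophil-like cells held 53.7% of S100a11 and 43.7% of S100a6 UMIs, but 4.5% of S100a4 and 4.4% of S100a10 UMIs. Macrophage-like cells did not differ from classical monocyte-like cells beyond the spread of the libraries in any member, neither upwards (19.4% of 8338 genes) nor downwards (16.2%). Within libraries, however, S100a8 was higher in macrophage-like cells in 6 of 6 (1.11 to 1.28-fold), as were S100a9 (1.13 to 1.45-fold) and S100a6 (1.12 to 1.65-fold). This comparison depended on the assignment, since 3 members were higher without overlap in Leiden classes. It also depended on the libraries, since 2 were without library 1 and 1 was without library 3. The share of all genes is not given for these settings, so these counts describe no trait of the members.

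Among the macrophage-like subsets, S100a4 and S100a6 were highest in cells marked by Fxyd2 and Aqp1, and S100a11 in cells marked by Arg1. The 1263 Fxyd2 macrophage-like cells had 6096 CPM of S100a6 (5327 to 7089), compared with the Arg1 (3597 CPM, 2840 to 4310), resident (3414 CPM, 2805 to 4153) and Cxcl9 (2581 CPM, 2173 to 3616) subsets. S100a4 followed the same order at the top, with 3093 CPM (2587 to 3472) in Fxyd2 and 1818 CPM (1421 to 2234) in Arg1 macrophage-like cells. S100a11 was at 1556 CPM (1231 to 1866) in the 869 Arg1 macrophage-like cells, which overlapped the Cxcl9 subset (1253 CPM, 1172 to 1442). It was at 806 CPM in the resident and 752 CPM in the Fxyd2 subset. Resident macrophage-like cells, marked by Lyve1 and Cd163, differed from the Arg1 subset without overlap in 1 member, S100a11, which was lower (log2 ratio -0.95; 4.38% of 8099 genes were lower and 8.27% higher), although the smallest library held only 17 resident cells. Pooled S100a8 was also lowest in Fxyd2 macrophage-like cells, with 4653 CPM (3699 to 6595) and 16.7% of cells positive. The Arg1 subset had 9817 CPM (7617 to 13484) and 43.7%. The resident (2950 to 23325) and Cxcl9 (4830 to 13365) ranges of S100a8 overlapped that of the Fxyd2 subset.

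In lymphocytes the intracellular members marked T cells over B cells. S100a4 (31.9-fold, log2 ratio 5.00), S100a6 (12.8-fold, 3.68), S100a10 (3.91-fold, 1.97) and S100a11 (2.84-fold, 1.50) were higher in T cell-like than in B cell-like cells without overlap, where 16.5% of 9059 genes were higher and 30.7% lower. S100a4 in T cell-like cells was at 1663, 785, 1517, 1734, 1157 and 619 CPM in libraries 1 to 6, and in B cell-like cells at 6.85 to 135 CPM with the highest value in library 3. The ranges of S100a8 and S100a9 overlapped between these classes. Within libraries, both were higher in T cell-like cells in 0 of 6, with ratios of 0 to 0.546 for S100a8 and 0.00298 to 0.477 for S100a9. Within T cell-like cells, S100a6 was at 3774 CPM (3473 to 4322) in gamma-delta, 2169 CPM (1821 to 2903) in CD4, and 1000.0 CPM (358 to 2251) in CD8 T cell-like cells, and S100a4 was at 2314, 2056 and 437 CPM in the same order. The ranges of S100a4 overlapped between gamma-delta (1902 to 2926) and CD4 cells (1715 to 2704). In the B lineage, S100a11 was at 95.7 CPM (48.1 to 125) in pro-B, 194 CPM (128 to 673) in Rag1 pre-B and 289 CPM (192 to 328) in mature B cell-like cells.

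Across the 17 classes with at least 50 cells, S100a8 and S100a9 had a Pearson correlation of 0.994, and S100a4 and S100a6 one of 0.877. S100a6 and S100a11 had a value of 0.814, while S100a8 and S100a10 had -0.41. These values describe log levels over classes that share the same libraries. Outside the neutrophil- and precursor-like classes, the S100a8 and S100a9 levels came from a minority of cells. The part of neutrophil RNA in their correlations was not tested. Over 7387 genes, the patterns most like S100a8 were those of Wfdc21 (0.939), Lcn2 (0.900), which encodes lipocalin 2, and Trem3 (0.898), and the same 3 genes led for S100a9. The nearest genes were Trps1 (0.872) for S100a4, Rbms1 (0.914) for S100a6, Rbpj (0.790) for S100a10 and Arpc1b (0.889) for S100a11.

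Of the 11 other S100 symbols, 3 exceeded 100 CPM in any class. This level only set which listed genes are named, and the share of all genes past it is not given. For scale, 7387 genes were past 50 CPM in a class. S100a13 reached 274 CPM in fibroblast-like cells (265 to 323), S100a1 127 CPM in precursor-like cells and S100a16 102 CPM in fibroblast-like cells. Of 8 genes for receptors or binding proteins of extracellular S100 proteins, 4 exceeded that level. Cd14 was highest in classical monocyte-like cells (1252 CPM, 902 to 1754) and stood at 712 CPM in neutrophil-like cells. Cd36 was at 583 CPM in nonclassical monocyte-like and 538 CPM in macrophage-like cells, with Cd69 and Bsg as the others. Tlr4, a receptor of S100A8 and S100A9, had 71.7 CPM at most, in classical monocyte-like cells, and Ager, which encodes RAGE, had 1.09 CPM at most.

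All 5 listed intracellular partners passed the same level of 100 CPM in a class and are named for that reason only. Anxa1, the annexin bound by S100A11, was highest in neutrophil-like cells (2097 CPM, 1411 to 2344), as was S100a11. Anxa2, the partner of S100A10, was highest in migratory dendritic cell-like cells (1749 CPM) and was at 601 CPM in neutrophil-like cells, where S100a10 was at 115 CPM. Ahnak, a scaffold of the S100A10 and annexin A2 complex, was highest in macrophage-like cells (1824 CPM), like S100a10, and was at 99.7 CPM in neutrophil-like cells. Myh9, the heavy chain of the myosin bound by S100A4, was highest in neutrophil-like cells (686 CPM), where S100a4 was at 155 CPM. All 5 transcription factors of myeloid cells found in the table exceeded 100 CPM in a class. Cebpe, a factor of granulocyte maturation, was highest in precursor-like (226 CPM) and neutrophil-like cells (140 CPM). The others peaked in other classes. Cebpa was at 103 CPM in macrophage-like and 5.87 CPM in neutrophil-like cells. Cebpb (2319 CPM) and Spi1 (636 CPM) peaked in nonclassical monocyte-like cells, with 1739 and 430 CPM in neutrophil-like cells. Stat3 peaked in natural killer (NK) cell-like cells (900 CPM) and was at 282 CPM in neutrophil-like cells.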

How the data were processed

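The authors aligned reads of the Chromium 3′ kit to mm10 with Cell Ranger 7 (version from the submitters' processing notes), removed ambient RNA with SoupX and doublets with DoubletFinder, filtered cells with Seurat, and deposited whole UMI counts of all samples in 1 table, not scaled for depth (47273569 to 123367661 UMIs per library, medians of 9923 to 14001 per cell). The table held 1724738 stored zeros (1.68% of its entries), read as entries emptied by the ambient correction. There were 0 columns of other series.

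Members and lists were chosen with earlier results of these data known. A cell took the class with the largest share of its own markers detected, with at least 3 detected and no tie; subsets needed at least 2 markers where their list had that many. Library values needed 20 cells and a class 50 cells. The marker sums by state of the S100a8 entry and the comparison of resident with Arg1 macrophage-like cells also included smaller libraries. Ratios needed 100 UMIs of the 2 genes in a library. Differences between classes were described by library ranges that did or did not overlap, for genes over 10 CPM in either class, and no test was run. Genes were named as members, as the 3 genes most like each member over classes (log2 of CPM plus 1, genes over 50 CPM in any class), and from lists of other S100 genes, receptors, partners and regulators. S100a2 was in the table although not in the list, and Ahsp, Pclaf and Cebpd were not. The granule ranges were set at 0.1%, 1%, 3% and 10% after the data had been seen. Alternatives were a minimum of 4 markers, Leiden clusters (2000 genes, 30 components, 15 neighbors, resolution 1.0, without S100 genes, 34 clusters), S100a8 and S100a9 left out of the denominator, equal weight per library, a minimum of 2000 UMIs, thinning to 2000 UMIs, and leaving out each library. Intervals are 95% Wilson intervals. The scripts were checked on simulated data. Python 3.11.15 was used with numpy 2.4.6, scipy 1.17.1, pandas 2.3.3, scanpy 1.11.5, igraph 0.11.9, scikit-learn 1.9.0, umap-learn 0.5.12 and matplotlib 3.10.9.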

Additional observations from a re-analysis of the deposited data

How the results depend on the processing

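Vehicle and PEPITEM could not be compared, because the library numbers are not linked to the samples. Classes were compared within the same library where this is stated. The highest class of S100a8, S100a9, S100a4, S100a6 and S100a11 was the same with at least 4 markers, with Leiden clusters (14 classes, with no type 1 or migratory dendritic cell-like class, so the runner-up of S100a11 and that of S100a4 were not compared there) and without each library. In neutrophil-like cells, S100a8 (127954 CPM) was 128486 with at least 4 markers, 129455 in Leiden clusters, 174986 with S100a8 and S100a9 out of the denominator, 119961 with equal weight per library, 128172 in cells of at least 2000 UMIs and 124978 to 130255 without single libraries. S100a9 (140822 CPM) was 141410, 142020, 192583, 132170, 141056 and 136265 to 142717 under the same settings. S100a6 (4927 CPM) was 4950 with at least 4 markers, 4621 in Leiden clusters, 6739 with the other denominator, 4673 with equal weight and 4688 to 5039 without single libraries. S100a11 (3456 CPM) was 3361 in Leiden clusters, 4727 with the other denominator, 3501 with equal weight and 3370 to 3557 without single libraries. S100a4 in type 2 dendritic cell-like cells (2932 CPM) was 2299 in Leiden clusters, 2818 with equal weight and 2835 to 3007 without single libraries. S100a10 in macrophage-like cells (1619 CPM) was 1253 in Leiden clusters, 1644 with the other denominator, 1642 with equal weight and 1561 to 1671 without single libraries. The share of S100a8-positive neutrophil-like cells (99.9%) was 99.97% with stored zeros as positive and 99.86% to 99.92% without single libraries. In monocyte-like cells (19.7%) it was 18.3% after thinning, 97.2% with stored zeros as positive and 19.1% to 20.5% without single libraries. In B cell-like cells (3.43%) it was 2.64% after thinning, 2.58% with at least 2 UMIs required, 92.7% with stored zeros as positive and 2.25% to 4.06% without single libraries, the lowest without library 3. The ratio of S100a8 to S100a9 in neutrophil-like cells (0.909) was 0.907 as the mean of the libraries and 0.900 to 0.917 without single libraries. The alternatives for counts of members that differ between classes were chosen after seeing the data: 0 members were higher in macrophage- than in monocyte-like cells, 3 in Leiden clusters and 0 to 2 without single libraries (2 without library 1, 1 without library 3), and the counts between neutrophil- and monocyte-like and between T cell- and B cell-like cells were unchanged under each setting run. The share of all genes is not given for these other settings, and the causes were not tested.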

Other observations

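Cycling classical monocyte-like cells had less S100a6 and S100a4 than those not cycling. S100a6 was at 2399 CPM (2158 to 2628 over the libraries) in the 1212 cycling and 3508 CPM (3134 to 3732) in the 3623 other cells, and S100a4 at 1475 CPM (1241 to 1819) and 2214 CPM (1892 to 2463). The ranges of S100a11 overlapped, at 1093 CPM (993 to 1350) and 1527 CPM (1177 to 1880), although it was lower in the cycling cells of each library. S100a10 was at 1324 CPM in the cycling and 1236 CPM in the other cells. Cells that tied between classes had 42516 CPM of S100a8 and an S100a8 UMI in 69.7% of them, between the neutrophil-like and the macrophage-like values, together with 905 CPM of S100a10 and 1105 CPM of S100a4.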
